A study of Mus musculus with 6 samples.

Results

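The transcripts of 8 genes that answer growth factor and serum signals within minutes to hours, or that restrain that answer, were examined in Ocy454 cells, a mouse cell line with osteocyte properties. They were the transcription factors Egr1, Egr2 and Egr3, the immediate early response genes Ier2 and Ier3, serum response factor (Srf), and the EGR-binding co-repressors Nab1 and Nab2. The genes were chosen by symbol from the series expression matrix, where they make up 8 of 39179 listed genes. The list was drawn up with earlier results of these libraries known, in which Egr2 was among the genes with the lowest level after YKL-05-093 relative to vehicle. The values that led to the list were thus those of the YKL-05-093 and vehicle libraries, and for the 8 genes that contrast is given as a description without p-values. Egr1 and Egr2, whose low level with YKL-05-093 relative to vehicle was known, are described without p-values in the other comparisons too, since these share the vehicle or the YKL-05-093 libraries. For the other genes of the list, p-values are printed in those comparisons. They rest on the same shared libraries and are thus no independent support. All 8 genes are accounted for, and 7 passed the filter on low values, which asked for at least 0.5 RPKM (a read number divided by gene length and by library size) in at least 2 libraries. Egr3 did not.

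The series held 6 RNA-seq libraries, 2 for each of 3 conditions: vehicle (PBS with 25 mM HCl per the labels), 1 nM parathyroid hormone (PTH 1-34) and 0.5 µM YKL-05-093, an inhibitor of salt-inducible kinases (SIKs), each given for 4 hours. All cells came from a single-cell subclone of Ocy454 that had been held at 37 °C for 14 days after reaching confluence, so no genetic difference separated the conditions and all libraries represent 1 clone. Nothing in the labels says that the 2 libraries of a condition came from separate experiments, and p-values therefore measure the spread between these libraries, which may be technical. The libraries held between 17505798 and 27983585 reads. The typical difference between replicates was larger in the vehicle pair (median 0.333 on the log2 scale) than in the PTH pair (0.108) or the YKL-05-093 pair (0.103). Of 12 osteoblast and osteocyte markers, 8 reached 0.5 RPKM in a library, among them Dmp1 and Phex, whereas the osteocyte products Sost and Fgf23 and the Wnt antagonist Dkk1 had 3 or fewer reads in every library. Summed over these 12 markers, the level was 466 to 569 RPKM in vehicle, 613 to 692 RPKM with PTH and 534 to 619 RPKM with YKL-05-093, and its part in the results was not tested. Col1a1 was the largest part of this sum (259 to 430 RPKM over the 6 libraries). The sum hides wide spans of lower markers, such as Sp7 (11.1 to 46.0 RPKM) and Phex (0.764 to 4.93 RPKM). The summed level of 3 chondrocyte markers was 1.74 to 2.31 RPKM in vehicle, 3.08 to 3.12 RPKM with PTH and 3.13 to 3.38 RPKM with YKL-05-093, without overlap between vehicle and the treated libraries, and its part in the results was not tested. Macrophage and blood markers summed to 3.83 to 4.51 RPKM in the 6 libraries, with overlap between conditions, and most of this was Cd68. Markers of skeletal muscle, fat cells and endothelium had a summed level of at most 0.0327, 0.0579 and 0.101 RPKM.

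Immediate-early genes are transcribed without prior protein synthesis when a signal reaches the nucleus. In the classical route, the kinase ERK phosphorylates ternary complex factors of the ELK family, which sit with SRF on serum response elements, whose core is the CArG box. SRF also works with myocardin-related factors (MKL1 and MKL2), which respond to the actin cytoskeleton. EGR1, EGR2 and EGR3 are zinc finger proteins that bind GC-rich sites, and NAB1 and NAB2 bind the EGR proteins and repress their activity, so that the family carries its own brake. PTH signals through cAMP and protein kinase A, which acts on CREB at cAMP response elements and holds SIKs inactive. These relations are background and were not measured here.

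The promoters of Egr2, Srf and Nab1 are shown because all 3 hold at least 1 of the searched motifs. The levels of Egr2 and Srf differed without overlap between the 3 conditions, and those of Nab1 did not. The Ier3 window held none of the motifs. The Ier3 levels were highest with PTH, while vehicle and YKL-05-093 were nearly tied at their nearest libraries (27.0 and 26.9 RPKM). How many of all tested genes differ without overlap was not counted. A link between motifs and levels was not tested. The windows run from 250 bases before to 50 bases after an annotated start (RefSeq, GRCm38.p6) and are printed 5′ to 3′ on the strand of the gene. Windows were found for 5 of the 8 genes (Egr2, Srf, Ier3, Nab1 and Nab2), and 5 of the 9 windows belonged to Egr2. The Egr2 window printed is 1 of the 3 with the most matches, all of which hold the same CArG box and CRE cores seen from neighbouring starts. Capitals mark matches on either strand to the CArG box, the EGR site GCGNGGGCG or the CRE core TGACG, and no match overlapped another. The Egr2 window lies at chr10:67537619-67537918 on the plus strand, the Srf window at chr17:46556113-46556412 on the minus strand and the Nab1 window at chr1:52500399-52500698 on the minus strand.
Egr2: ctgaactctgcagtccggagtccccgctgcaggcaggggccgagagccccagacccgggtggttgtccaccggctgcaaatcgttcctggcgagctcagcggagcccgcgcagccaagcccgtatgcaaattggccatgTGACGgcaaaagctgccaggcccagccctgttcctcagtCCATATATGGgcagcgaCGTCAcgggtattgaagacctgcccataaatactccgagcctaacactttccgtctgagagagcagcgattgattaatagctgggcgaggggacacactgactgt
Srf: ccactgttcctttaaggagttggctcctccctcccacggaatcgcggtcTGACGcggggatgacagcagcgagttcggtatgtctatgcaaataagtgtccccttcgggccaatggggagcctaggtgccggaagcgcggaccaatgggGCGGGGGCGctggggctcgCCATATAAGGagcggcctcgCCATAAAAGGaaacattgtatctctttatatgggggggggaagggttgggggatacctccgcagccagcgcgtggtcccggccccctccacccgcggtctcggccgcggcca
Nab1: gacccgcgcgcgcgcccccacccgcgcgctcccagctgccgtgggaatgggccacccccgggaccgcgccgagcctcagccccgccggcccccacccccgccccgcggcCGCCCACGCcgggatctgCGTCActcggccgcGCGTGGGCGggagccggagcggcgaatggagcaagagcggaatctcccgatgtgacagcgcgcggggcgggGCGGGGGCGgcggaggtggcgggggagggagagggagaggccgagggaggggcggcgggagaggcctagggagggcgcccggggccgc

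The printed Egr2 window held 1 CArG box at positions -72 to -63 from the start, with CRE cores at -111 to -107 and, on the opposite strand, at -55 to -51. The Egr2 window that begins at 67535249, nearest to the annotated start of the gene, held none of the 3 motifs, and the one that begins at 67537316 held a CArG box but no CRE core. The Srf window held 2 CArG boxes, at -82 to -73 and -62 to -53, together with an EGR site at -101 to -93 and a CRE core at -201 to -197. The Nab1 window held no CArG box but 3 EGR sites, at -141 to -133, -109 to -101 and -38 to -30, and 1 CRE core at -123 to -119. The windows of Ier3 and Nab2 held none of the 3 motifs. The Nab2 window (chr10:127666654-127666953, minus strand) lies inside the annotated gene, whose 5′ end is at 127668568. The sequence around that end was not searched. A CArG box was found in 1.63% of all 32851 promoter windows of the table, an EGR site in 5.55% and a CRE core in 20.8%. A match describes the letters only, and binding was not measured.

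**Figure D1:**
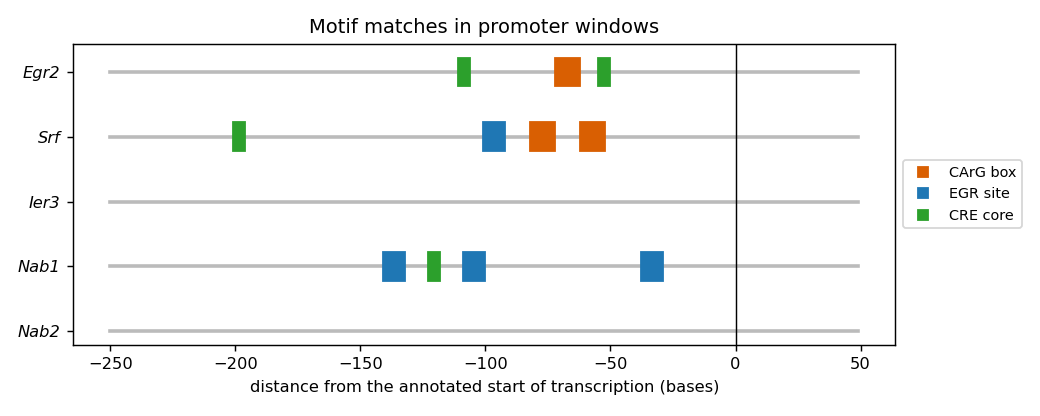
Matches to 3 motifs in promoter windows of 5 genes, drawn by their distance in bases from the annotated start of transcription (vertical line at 0), with grey lines for the windows and coloured blocks for the matches (for Egr2, the printed window of its 5). The printed Egr2 window and the Srf window hold CArG boxes within 82 bases of the start, Nab1 holds 3 EGR sites, and Ier3 and Nab2 hold no match.

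Egr2, a factor best known from hindbrain patterning and Schwann cell myelination, was lower with PTH than with vehicle. Its level was 7.10 and 8.65 RPKM in the vehicle libraries, 3.38 and 3.86 RPKM with PTH, and 1.02 and 1.49 RPKM with YKL-05-093. The 3 conditions did not overlap, and the order was vehicle, PTH, YKL-05-093. The PTH mean of 3.62 ± 0.342 RPKM (SD, n = 2) was 46.0% of the vehicle mean of 7.87 ± 1.10 RPKM (SD, n = 2). The fitted difference was -1.09 on the log2(RPKM + 0.1) scale (SE 0.176, 95% interval -1.51 to -0.68, limma). Because the vehicle libraries are among those whose values led to the list, it is a description. Leaving out 1 library moved it between -1.24 and -0.95.

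The YKL-05-093 mean of Egr2 was 1.25 ± 0.335 RPKM (SD, n = 2), 15.9% of the vehicle mean, with a difference of -2.58 on the log2 scale (SE 0.223). Only 0.245% of tested genes had a lower log2 fold change in that contrast. Because its level there put Egr2 on the list, the difference carries no test. Set directly against each other, the PTH libraries lay 1.48 above the YKL-05-093 libraries (SE 0.170, 95% interval 1.12 to 1.84, log2 scale), which is likewise a description. The reads behind the values numbered 386 and 752 in vehicle, 227 and 229 with PTH, and 64 and 96 with YKL-05-093. Egr2 lies at chromosome 10, 67535475 to 67542188 (GRCm38, plus strand).

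Egr1, the most widely induced member of the family and a regulator of growth factor and matrix genes, had the same order of condition means. It measured 6.78 and 6.08 RPKM in vehicle, 3.12 and 4.40 RPKM with PTH, and 0.873 and 1.55 RPKM with YKL-05-093. Again no library of 1 condition overlapped with those of another. The PTH mean of 3.76 ± 0.906 RPKM (SD, n = 2) was 58.5% of the vehicle mean of 6.43 ± 0.492 RPKM (SD, n = 2). The fitted difference of -0.78 on the log2 scale (SE 0.201, 95% interval -1.25 to -0.30, limma) is a description as well. Leaving out 1 library moved it between -1.02 and -0.53. Egr1 lies at chromosome 18, 34859823 to 34864984 (plus strand).

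With YKL-05-093, Egr1 averaged 1.21 ± 0.482 RPKM (SD, n = 2), or 18.9% of vehicle, and the difference was -2.36 on the log2 scale (SE 0.259). The 89 and 162 reads of Egr1 with YKL-05-093 stood against 596 and 855 in vehicle. PTH libraries exceeded YKL-05-093 libraries by 1.59 on the log2 scale (SE 0.199, 95% interval 1.16 to 2.01). In RPKM, which is per length, Egr1 and Egr2 stood at nearly the same level within each treated condition, 3.76 and 3.62 RPKM with PTH and 1.21 and 1.25 RPKM with YKL-05-093, and their library values overlapped in both.

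Egr3, which is often induced together with Egr1, was near the limit of detection. Its level was 1.01 and 0.455 RPKM in vehicle, 0.164 and 0.297 RPKM with PTH, and 0.105 and 0.170 RPKM with YKL-05-093. Both vehicle libraries were above all treated libraries, while PTH and YKL-05-093 overlapped. At least 25 and 18 reads lay behind the vehicle values, 5 and 8 behind those of PTH and 3 and 5 behind those of YKL-05-093. The exact 95% Poisson interval of the first vehicle library (0.654 to 1.49 RPKM) and that of the second (0.270 to 0.719 RPKM) overlapped in part. Such intervals cover counting error only, and because the reads are minima, these may be too wide and their overlap too large. With the filter lowered to 0.1 RPKM, the fitted difference for PTH against vehicle was -1.28 on the log2 scale (SE 0.444) and did not pass (limma, adjusted p = 0.305). For PTH against YKL-05-093 it was 0.46 (SE 0.487, 95% interval -0.63 to 1.55, limma, adjusted p = 0.698). A difference in either direction was not detected, and the low level limits what can be said of it. The description for YKL-05-093 against vehicle was -1.74 (SE 0.455). Egr3 lies at chromosome 14, 70077203 to 70082614 (plus strand). In bulk RNA, fewer cells that express a gene and less RNA per cell cannot be told apart, here and in all results that follow.

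**Figure D2:**
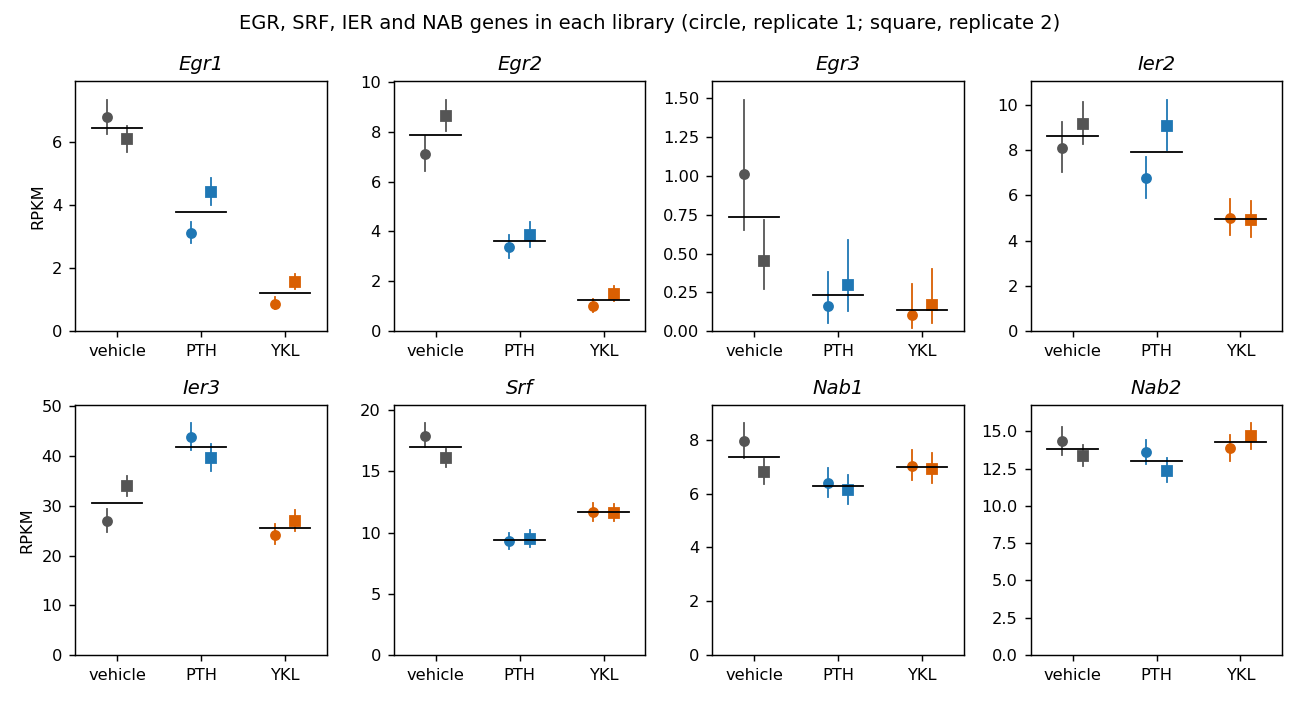
RPKM of the 8 genes in each of the 6 libraries by condition (YKL, YKL-05-093), with vertical lines for the exact 95% Poisson interval of the reads and black bars for the mean of 2 libraries, each panel starting at 0. The Egr1 and Egr2 values step down from vehicle to PTH to YKL-05-093 without overlap, the lowest Srf values are those with PTH, and the highest Ier3 values are those with PTH.

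Srf, the MADS-box factor that binds the CArG box, showed another order. It measured 17.9 and 16.1 RPKM in vehicle, 9.30 and 9.50 RPKM with PTH, and 11.7 and 11.6 RPKM with YKL-05-093. The conditions did not overlap, and here PTH rather than YKL-05-093 held the lowest values. The PTH mean of 9.40 ± 0.139 RPKM (SD, n = 2) was 55.3% of the vehicle mean of 17.0 ± 1.29 RPKM (SD, n = 2). Srf fell with PTH by 0.85 on the log2 scale (SE 0.160, limma with Benjamini-Hochberg adjustment over all tested genes, adjusted p = 0.0462), and 2.19% of all tested genes passed at an adjusted p below 0.05 in that comparison. The change was under 2-fold. It no longer passed without PTH replicate 1 (limma, adjusted p = 0.904) or PTH replicate 2 (limma, adjusted p = 0.941), nor in 5 of 10 other settings, where the adjusted p of limma was up to 0.136.

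The YKL-05-093 mean of Srf was 11.6 ± 0.0319 RPKM (SD, n = 2), 68.5% of vehicle, a difference of -0.54 on the log2 scale (SE 0.158, 95% interval -0.91 to -0.17). Compared directly, Srf was lower with PTH than with YKL-05-093 (a difference of -0.31, SE 0.073, limma, adjusted p = 0.0123). This difference passed in none of the 4 fits that left out 1 library (limma, adjusted p = 0.164 to 0.231) nor in the fit of all 6 libraries (limma, adjusted p = 0.521). Each Srf value rested on 740 to 1840 reads. Srf lies at chromosome 17, 46548329 to 46556175 (minus strand), and its own window holds the pair of CArG boxes printed above.

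Ier2, a nuclear protein gene of a single exon, differed little between PTH and vehicle. Its level was 8.07 and 9.16 RPKM in vehicle, 6.75 and 9.07 RPKM with PTH, and 4.99 and 4.91 RPKM with YKL-05-093. The PTH libraries overlapped with vehicle, and both YKL-05-093 libraries were below all others. The difference for PTH against vehicle was -0.13 on the log2 scale (SE 0.195, 95% interval -0.59 to 0.32, limma, adjusted p = 0.835), and without PTH replicate 1 it turned to 0.075. The mean with YKL-05-093, 4.95 ± 0.0555 RPKM (SD, n = 2), was 57.5% of the vehicle mean of 8.62 ± 0.769 RPKM (SD, n = 2), a difference of -0.78 (SE 0.166). Compared directly, Ier2 was higher with PTH than with YKL-05-093 by 0.65 (SE 0.141, limma, adjusted p = 0.00634), although this passed in none of the 4 fits without 1 library (limma, adjusted p = 0.164 to 0.306) nor with all 6 libraries fitted together (limma, adjusted p = 0.197). Ier2 lies at chromosome 8, 84661331 to 84662852 (minus strand).

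Ier3, a stress and growth factor response gene with roles in cell survival, was the only one of the 8 with a higher mean in PTH than in vehicle. It measured 27.0 and 34.0 RPKM in vehicle, 43.9 and 39.7 RPKM with PTH, and 24.2 and 26.9 RPKM with YKL-05-093. The PTH libraries were above all others, and those of YKL-05-093 were just below the vehicle libraries. The PTH mean of 41.8 ± 2.97 RPKM (SD, n = 2) was 137% of the vehicle mean of 30.5 ± 4.91 RPKM (SD, n = 2), and the difference of 0.46 on the log2 scale (SE 0.180, 95% interval 0.04 to 0.88 for this gene alone) did not pass (limma, adjusted p = 0.324). Without 1 of the vehicle libraries, replicate 2, it passed (limma, adjusted p = 0.0153). For YKL-05-093 against vehicle the description was -0.25 (SE 0.179, 95% interval -0.67 to 0.18). Compared directly, Ier3 was higher with PTH than with YKL-05-093 by 0.71 (SE 0.085, limma, adjusted p = 2.78e-05), a call on the adjusted p alone that was absent in 2 of the 4 fits without 1 library (limma, adjusted p up to 0.178) and in the fit of all 6 libraries (limma, adjusted p = 0.0969). Ier3 lies at chromosome 17, 35821684 to 35822923 (plus strand).

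Neither EGR co-repressor passed the test for PTH against vehicle or for PTH against YKL-05-093. Nab1 measured 7.95 and 6.82 RPKM in vehicle, 6.40 and 6.13 RPKM with PTH, and 7.05 and 6.93 RPKM with YKL-05-093, so that PTH was lowest and YKL-05-093 lay within the range of vehicle. Its difference for PTH against vehicle was -0.23 on the log2 scale (SE 0.163, 95% interval -0.61 to 0.15, limma, adjusted p = 0.651), which passed without vehicle replicate 2 (limma, adjusted p = 0.0495), and the description for YKL-05-093 against vehicle was -0.07 (SE 0.161). Nab2, which in many cells is itself induced by EGR proteins, measured 14.3 and 13.4 RPKM in vehicle, 13.6 and 12.4 RPKM with PTH, and 13.9 and 14.7 RPKM with YKL-05-093. Its PTH and YKL-05-093 libraries each overlapped with vehicle. The difference for PTH against vehicle was -0.09 (SE 0.161, 95% interval -0.47 to 0.29, limma, adjusted p = 0.868), and for YKL-05-093 against vehicle it was 0.04 (SE 0.156). Between PTH and YKL-05-093 the differences were -0.15 for Nab1 (SE 0.083, limma, adjusted p = 0.301) and -0.13 for Nab2 (SE 0.076, limma, adjusted p = 0.334). The intervals leave room for changes of up to 0.61 on the log2 scale with PTH, and a p above the threshold does not show that the levels were equal.

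Nab1 lies at chromosome 1, 52457294 to 52500679 (minus strand). Nab2 lies at chromosome 10, 127660918 to 127668568 (minus strand), where exons of Gm16229, Nemp1 and Stat6 on the other strand overlap it. Stat6 measured 23.1 to 29.5 RPKM, more than Nab2 in every library. Whether the counting used strand was not given. The overlap may thus have altered the reads counted for Nab2, and the direction of such an effect was not tested. No exon of another annotated gene overlapped the other 7 genes.

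**Figure D3:**
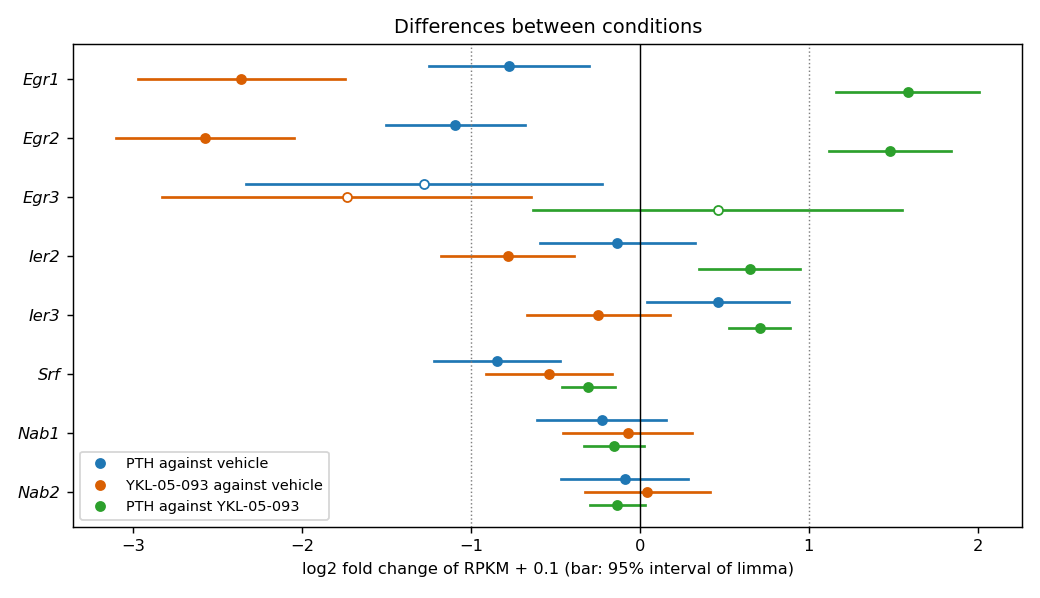
Difference between conditions for each gene on the log2(RPKM + 0.1) scale (points) with the 95% interval of limma (bars), with dotted lines at 2-fold and open points for Egr3, fitted with the lower filter. Egr1 and Egr2 lie furthest from 0 with YKL-05-093, Ier3 lies to the right for PTH against either other condition, and the Nab1 and Nab2 intervals all cross 0.

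A gene was called if it moved by over 2-fold with an adjusted p below 0.05. Counted over the 7 tested genes, 1 was called for PTH against vehicle (Egr2), beside 1.90% of 14261 tested genes, and 2 were under the adjusted p of 0.05 whatever the fold (Egr2 and Srf). For YKL-05-093 against vehicle, 2 of 7 were called (Egr1 and Egr2), beside 0.673% of 14255 tested genes. For PTH against YKL-05-093, 2 of 7 were called, again Egr1 and Egr2, beside 1.21% of all tested genes. On the adjusted p alone 5 of 7 passed, beside 9.95% of all tested genes, with Egr1, Egr2, Ier2 and Ier3 higher and Srf lower with PTH. Nothing is read from these counts, since all of them include Egr2 and rest on libraries whose values led to the list. Some of these calls were lost when 1 library was left out. Without PTH replicate 1 or without PTH replicate 2, far fewer genes or none were called over the whole table too. Leaving out 1 library moved the direct difference between 1.203 and 1.969 for Egr1 and between 1.225 and 1.736 for Egr2 (log2 scale). For PTH against vehicle, it moved Egr2 between -1.236 and -0.954, on both sides of the 2-fold limit. The median log2 fold change of the 7 genes was -0.23, -0.54 and 0.65 in the 3 comparisons, and that of all tested genes was -0.03, -0.04 and 0.01. The comparisons with vehicle share the vehicle libraries and are not independent of each other. With 2 libraries against 2, an exact permutation test of a single gene cannot go below 0.333, so the tests rest on the spread shared across genes.

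Per length, the 8 transcripts ranked differently in each condition. In vehicle, the order of the means was Ier3, Srf, Nab2, Ier2, Egr2, Nab1, Egr1 and Egr3. The library values of Ier2 and Egr2 overlapped, as did those of Egr2 and Nab1. With PTH the order became Ier3, Nab2, Srf, Ier2, Nab1, Egr1, Egr2 and Egr3, where only Egr1 and Egr2 overlapped. With YKL-05-093 it was Ier3, Nab2, Srf, Nab1, Ier2, Egr2, Egr1 and Egr3, and again only Egr1 and Egr2 overlapped. Egr2 thus overlapped with Nab1 and Ier2 in vehicle, and Egr1 and Egr2 were below both in the treated libraries, whereas Ier3 was highest in all 6 libraries. At the vehicle level, Egr1 exceeded 48.7% of tested genes and Ier3 84.9%.

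Among the partners of SRF, none of 5 tested cofactor genes (Elk1, Elk3, Elk4, Mkl1 and Mkl2) passed in any comparison by limma. Over all tested genes, 2.19%, 0.673% and 9.95% passed in PTH against vehicle, YKL-05-093 against vehicle and PTH against YKL-05-093. Little can thus be read from 5 genes. In the same order, the unadjusted p of limma was under 0.05 for 0, 0 and 1 of the 5, beside 13.4%, 8.72% and 22.3% of all tested genes. On the recovered reads, limma voom called 0 of the 5 in each. Their median log2 fold changes were -0.17, -0.09 and 0.03. Myocd, the muscle member of the group, had at most 4 reads and was not tested. The vehicle value of Elk4 differed between its libraries (25.3 and 13.1 RPKM), which limits what can be said of it.

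Of 15 tested textbook targets of SRF, mostly genes for actin and its partners but also Ctgf, none was called in any comparison (limma, and 0 by limma voom). Over all tested genes, 1.90%, 0.673% and 1.21% were called, so little can be read from this. The unadjusted p of limma was under 0.05 for 6, 1 and 12 of the 15, beside 13.4%, 8.72% and 22.3% of all tested genes. Their median log2 fold change was -0.41 for PTH against vehicle, and 14 of 15 had a fitted value below 0. It was -0.12 for YKL-05-093 against vehicle and -0.23 for PTH against YKL-05-093. On the adjusted p alone, 7 were lower and 1 was higher with PTH than with YKL-05-093, by less than 2-fold each, beside 9.95% of all tested genes that passed in either direction. The lower ones included Actg1, cytoplasmic gamma actin (-0.62, limma, adjusted p = 3.52e-05), and Myl9, a regulatory light chain of myosin (-0.57, limma, adjusted p = 1.49e-05), and the higher one was Ctgf, a matricellular growth factor (0.78, limma, adjusted p = 0.0370). These 3 were picked as examples after their values were seen.

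Other immediate-early genes moved in both directions. Of 27 tested, 3 rose and 1 fell with PTH against vehicle, 4 rose and 0 fell with YKL-05-093 against vehicle, and 1 was higher and 2 were lower with PTH than with YKL-05-093, by the call rule of more than 2-fold. Over all tested genes, 1.90%, 0.673% and 1.21% were called in these comparisons. The list was written with results of these libraries known. The p-values of its genes therefore describe the spread between libraries and are no independent support. Fos, which encodes a subunit of AP-1, measured 2.60 and 3.26 RPKM in vehicle, 12.5 and 9.96 RPKM with PTH, and 7.96 and 9.26 RPKM with YKL-05-093. It rose by 1.90 with PTH (limma, adjusted p = 0.00440) and by 1.53 with YKL-05-093 (limma, adjusted p = 0.0257). Fos is a classical SRF target, and here its treated libraries were above vehicle where those of Egr1 and Egr2 were below. The activity of SRF was not measured, and the cause of this difference was not tested.

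Of the NR4A orphan nuclear receptors, which are classical cAMP-responsive genes, Nr4a1 and Nr4a2 rose with both treatments and Nr4a3 with YKL-05-093. Nr4a1 measured 4.45 and 3.72 RPKM in vehicle, 9.85 and 9.76 RPKM with PTH, and 33.2 and 42.6 RPKM with YKL-05-093, so that the YKL-05-093 libraries were highest. The changes were 1.25 with PTH (limma, adjusted p = 0.0128) and 3.18 with YKL-05-093 (limma, adjusted p = 0.00217). Nr4a2 rose by 2.39 with PTH (limma, adjusted p = 0.00165) and by 2.96 with YKL-05-093 (limma, adjusted p = 0.00217). Nr4a3 measured 0.221 and 0.160 RPKM in vehicle, 0.215 and 0.268 RPKM with PTH, and 1.18 and 1.48 RPKM with YKL-05-093. It reached the filter of 0.5 RPKM only through its YKL-05-093 libraries. Its differences, and its calls in the counts given for this list, are therefore a description and no test. Relative to vehicle they were 2.30 with YKL-05-093 and 0.23 with PTH (SE 0.287). Nr4a1 and Nr4a3 were lower with PTH than with YKL-05-093, with differences of -1.93 and -2.06.

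Klf4, a zinc finger factor, fell by 1.58 with PTH (limma, adjusted p = 0.00382), from 19.5 and 19.1 RPKM to 6.22 and 6.54 RPKM, and measured 9.99 and 11.5 RPKM with YKL-05-093. Fosl1, another AP-1 subunit, was higher with PTH than with YKL-05-093 by 1.49 (limma, adjusted p = 3.18e-06), as Egr1, Egr2, Ier2 and Ier3 were. The medians of the list, -0.01, -0.13 and -0.05, lay near those of all genes. Fosb, Egr4 and Trib1 did not reach the filter, and Egr4 is listed at 0 in all 6 libraries.

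Textbook targets of EGR1 moved in both directions. Of 10 tested, 1 rose and 3 fell with PTH, 1 rose and 3 fell with YKL-05-093, and 1 was lower with PTH than with YKL-05-093, beside 1.90%, 0.673% and 1.21% of all tested genes called, with list medians of -0.33, -0.29 and -0.10. Pdgfa, which encodes a platelet-derived growth factor chain, measured 23.3 and 28.7 RPKM in vehicle, 4.44 and 4.64 RPKM with PTH, and 9.87 and 10.8 RPKM with YKL-05-093. It fell by 2.49 with PTH (limma, adjusted p = 0.00140) and by 1.32 with YKL-05-093 (limma, adjusted p = 0.0323), and PTH was lower than YKL-05-093 (a difference of -1.17, limma, adjusted p = 2.70e-07). In Pdgfa the PTH libraries were therefore lowest, whereas in Egr1 those of YKL-05-093 were.

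F3, tissue factor of the clotting cascade, fell by 1.56 with PTH and by 1.18 with YKL-05-093 (limma, adjusted p = 0.00412 and 0.0346). Thbs1, which encodes the matrix glycoprotein thrombospondin-1, fell by 1.75 and 1.71 (limma, adjusted p = 0.0119 and 0.0323), with 64.8 and 43.1 RPKM in vehicle and 15.0 to 17.0 RPKM in the treated libraries. Plau, the urokinase gene, rose by 1.19 and 1.26 (limma, adjusted p = 0.0125 and 0.0287). Pdgfb and Icam1 did not reach the filter. The lists were drawn up with results of these libraries known and share the same 6 libraries, so their counts are a description. The p-values of genes named from the lists carry the same limit and are no independent support.

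**Figure D4:**
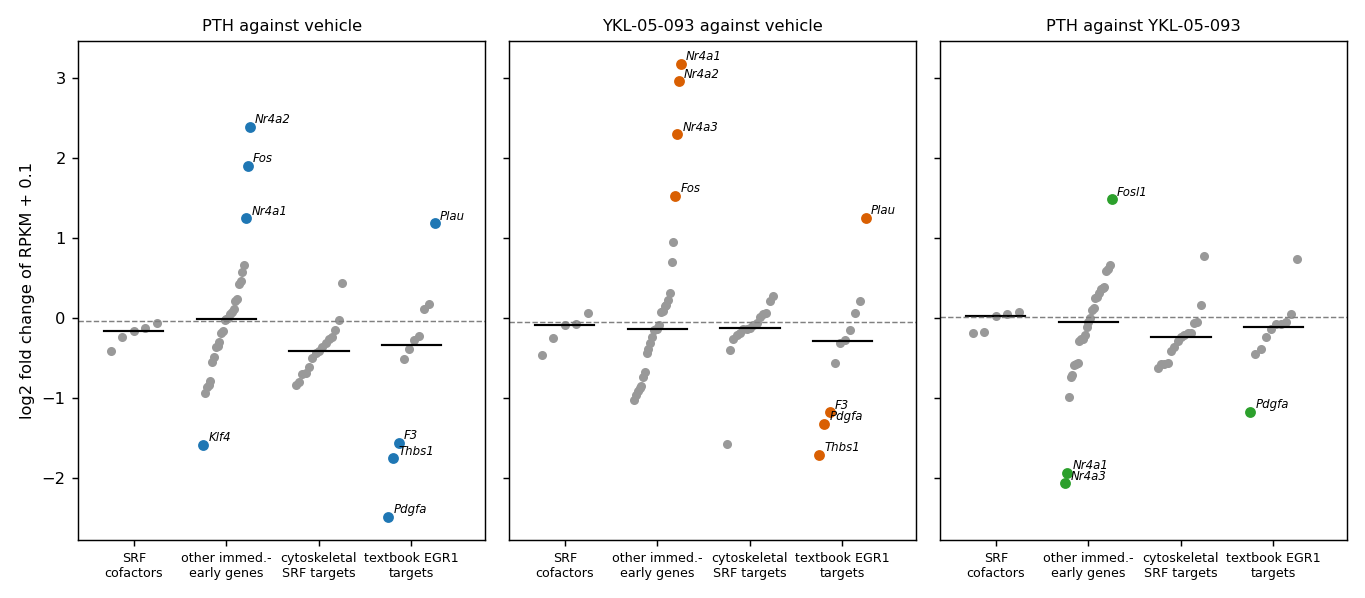
Log2 fold change of RPKM + 0.1 for each tested gene of 4 lists in the 3 comparisons, with coloured and named points for called genes, grey points for the others, black bars for list medians and a dashed line for the median of all tested genes. Fos, Nr4a1 and Nr4a2 lie well above 0 with both treatments and Pdgfa, F3 and Thbs1 well below. No SRF cofactor and no cytoskeletal target was called, beside 1.90%, 0.673% and 1.21% of all tested genes in the 3 comparisons.

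Over the 6 libraries, the pattern of Egr2 was most like that of Id2, an inhibitor of helix-loop-helix factors (Pearson r = 0.984 of log2 values), then Ctgf (r = 0.977) and Rspo3, a Wnt-enhancing ligand (r = 0.976). The search covered 436 genes with enough reads whose condition means differed by at least 2-fold. For Egr1 the nearest were Smad7, an inhibitor of TGF-beta signalling (r = 0.976), Ctgf (r = 0.973) and Id2 (r = 0.968). Id2 averaged 36.6 RPKM in vehicle, 28.6 RPKM with PTH and 15.9 RPKM with YKL-05-093. Ier3 was most like the Notch target Hes1 (r = 0.973), which averaged 5.14, 9.49 and 3.24 RPKM in vehicle, PTH and YKL-05-093, and then like Gm13705 (r = 0.946) and Eva1c (r = 0.943). Srf was most like Cdk5r1, an activator of CDK5 (r = 0.998), Chst15 (r = 0.997) and Nuak1, an AMPK-related kinase (r = 0.995). Nuak1 averaged 28.7 RPKM in vehicle, 3.48 RPKM with PTH and 8.72 RPKM with YKL-05-093, a wider span than Srf in the same order. These correlations describe 6 points from 3 conditions, in libraries that all genes share.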

How the data were processed

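Ribosomal RNA was depleted and directional libraries were made from 6 Ocy454 samples. The submitters' processing notes name CASAVA 1.7 and STAR, and the study's methods give mm10 as the genome and HTSeq for counting; whether counting used strand is not given in the sources used here. The authors deposited RPKM per gene, with single-library tables equal to the series table. Whole reads were recovered from the deposited RPKM (99.7% of each library total, with lengths taken as the smallest that give whole reads, so that the numbers of reads are minima). The filter (0.5 RPKM or more in 2 or more libraries) kept 14264 genes. Each comparison was fitted on its own 4 libraries, on log2(RPKM + 0.1), which understates the change of low genes, with limma 3.58.1 (R 4.3.3), a prior variance that followed the recovered reads, two-sided tests and Benjamini-Hochberg adjustment. The script was tested on simulated data. Of the 8 genes all were named, of pathway lists the called genes (at most 4 a comparison), and of similar patterns the nearest 3. The genes and lists were chosen with earlier results of these data known. Alternatives covered pseudocount, filter, prior variance, scaling, call rule, voom, a replicate block and leaving out each library.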

Additional observations from a re-analysis of the deposited data

How the results depend on the processing

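All counts here that include Egr1 or Egr2 are descriptions and no tests, since YKL-05-093 and vehicle values led to the list. The number of the 7 genes called (8 with a lower or no filter) depended on the settings. With 1 prior variance for all genes it was 0, 0 and 0 for PTH against vehicle, YKL-05-093 against vehicle and PTH against YKL-05-093 (limma, unadjusted p under 0.05 for 3, 4 and 5 genes). With no filter it was also 0, 0 and 0 (limma, unadjusted p under 0.05 for 5, 5 and 6 genes), and with the prior variance on the mean value it was 0, 0 and 1. For PTH against vehicle it was 0 with a pseudocount of 1 RPKM and 0 with libraries centred on the median. On the adjusted p alone it was 2, 2 and 5, and at more than 1.5-fold it was 2, 2 and 4. Leaving out each library in turn gave 0 to 1, 0 to 2 and 0 to 2, where the lone library of a condition is assumed to vary like the other pair. Among 294 alternative values of single genes, 232 kept direction and side of the threshold, 53 lost and 6 gained the threshold, and 3 changed sign, all within fits that left out a library: Ier2 for PTH against vehicle spanned -0.34 to 0.075, Nab1 for YKL-05-093 against vehicle -0.18 to 0.035, and Nab2 for YKL-05-093 against vehicle -0.007 to 0.093. Over all tested genes, the number called ranged over the settings from 0 to 671, 0 to 320 and 0 to 1419. For Srf, PTH against vehicle missed the threshold with a pseudocount of 0.01 RPKM (limma, adjusted p = 0.0557), a filter of 0.1 RPKM (0.0599), no filter (0.132), the prior variance on the mean value (0.0724) and 1 prior variance (0.136). The cause of these shifts was not tested. Replicate numbers did not pair the libraries (correlation of same-numbered deviations -0.034, -0.054 and -0.049). With the replicate block the number of these genes called was 1, 2 and 2, as without it. For PTH against vehicle, 3 instead of 2 were under the adjusted p, with Egr1 added, which is a description and no test of Egr1. Over all genes, the numbers called were 436, 211 and 195 with the block against 271, 96 and 173 without it. Depth may limit Egr3 above all, which had the lowest level, with at least 3 to 8 reads in the treated libraries.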
